A study of Ascaridia galli and Trichostrongylus colubriformis with 4 samples.

Results

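The heat shock protein and chaperonin transcripts of 2 intestinal parasites were followed, those of *Ascaridia galli*, a roundworm of chickens (*Gallus gallus*), and of *Trichostrongylus colubriformis*, a strongylid worm of sheep (*Ovis aries*). Members were chosen by the deposited product name alone. A unigene, one assembled transcript, was taken where that name held "heat shock", "hsp" with a digit after it, "DnaJ", "chaperonin" or "T-complex protein 1" in any case of letters. This gave 232 of 194608 unigenes, of which 151 of 150798 belonged to *A. galli* and 81 of 43810 to *T. colubriformis*. Names came from the best protein hit, so a member is a transcript that resembles the named protein, and 113 *A. galli* members shared their protein with another member (36 in *T. colubriformis*).

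The study set out to examine a moss extract as a treatment against worms. Its 4 libraries were whole *A. galli* treated in vitro with a water extract of *Pottia lanceolata*, a moss, whole *A. galli* kept in double distilled water as control, and whole *T. colubriformis* under the same 2 exposures. Worms were taken from slaughtered hosts and placed 6 to a dish, and the assay used 10, 20 and 50 mg/ml of extract. The sources used here do not give the concentration and time behind the RNA, the number of worms in each library, or their sex and age. Poly(A) RNA was sequenced on an Illumina HiSeq.

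Each table names its columns condition A and condition B, and it does not tie them to extract or water. All ratios below are therefore condition B over condition A, they do not show which way the extract moved a transcript, and the order of A and B need not be the same in both worms. With 1 library per condition there is no replicate check and no test. A ratio is log2((B + 1)/(A + 1)) of normalized counts, and its 95% counting interval covers counting error only. A member counted as higher or lower where the ratio was at least 4-fold and the larger value at least 20 normalized counts. Levels were not divided by transcript length, so they are compared between conditions and not between unigenes. In whole worms, fewer cells of a type and less RNA per cell cannot be told apart.

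Chaperones help other proteins reach and keep their fold. Small heat shock proteins hold unfolding proteins in solution, Hsp70 binds and releases unfolded stretches in cycles that J-domain (DnaJ) proteins set off, Hsp90 finishes the folding of kinases and receptors, and chaperonins enclose a protein in a barrel, Hsp60 in mitochondria and the T-complex protein 1 ring, also called CCT or TRiC, in the cytosol. Many of them are made all the time, and the transcription factor HSF1 raises some of them when proteins are damaged. In parasitic nematodes small heat shock proteins are well known as abundant proteins and as antigens.

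Reads recovered from the normalized counts were summed over the listed unigenes, so reads outside these unigenes are not in the totals. They came to 69118994 in condition B and 87659967 in condition A of *A. galli*. In *T. colubriformis* they came to 91812201 in condition B and 91182265 in condition A. Setting these totals equal moved the ratios of well-counted unigenes up by 0.38 in *A. galli* and by 1.99 in *T. colubriformis* (log2), because in the second worm the deposited scaling counts 1 read as 0.5 in condition B and as 2 in condition A. Trimmed-mean scaling moved them by 0.14 and 1.03. Ratios that rest on few reads moved by less, since 1 is added to both values. Medians under either scaling are given over the unigenes that passed the minimum as deposited, unless said otherwise. In both tables the ratio also changed in a step with the unigene number. Below number 100754 the median over all *A. galli* unigenes was -0.94 and from there on 1.37, and in *T. colubriformis* it was -5.65 below number 34723 and 2.99 from there on, as the plot of ratio by unigene number shows. These step points were chosen after the data were seen. The sources used here do not say what the numbers stand for, and the cause of the step was not tested.

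**Figure D1:**
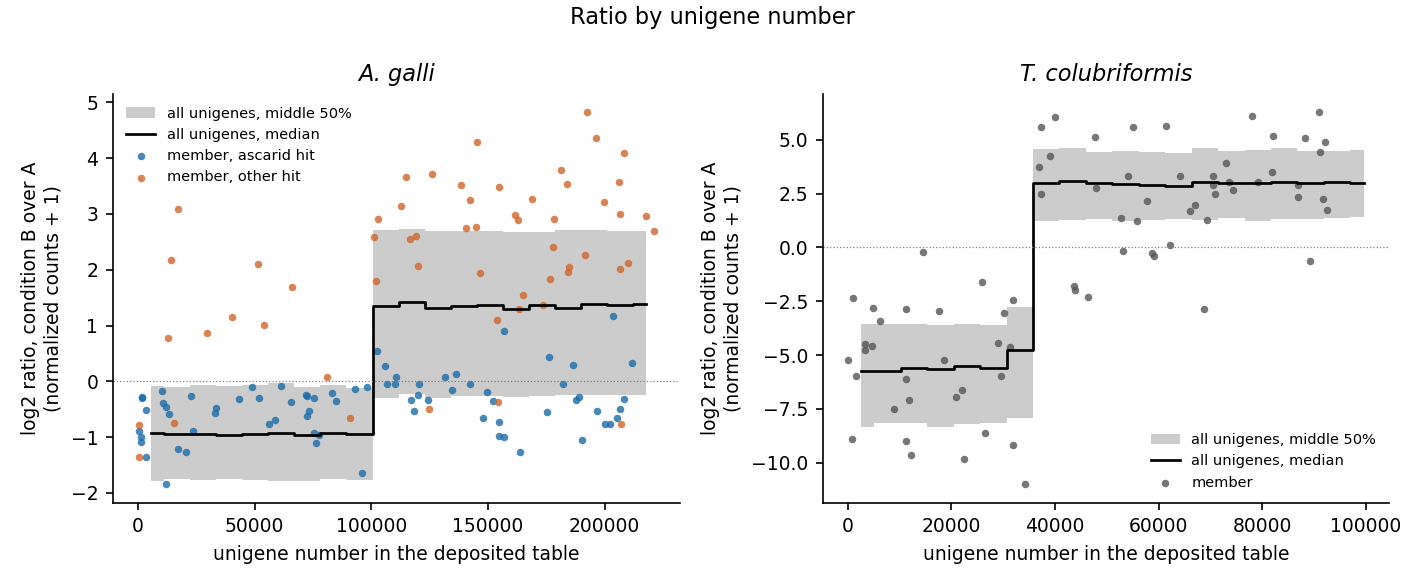
Ratio by unigene number in each worm. Vertical axes give the log2 ratio of condition B over condition A, horizontal axes the unigene number in the deposited table, the black line and grey band the median and middle 50% of all unigenes in equal bins, and points the members. In *A. galli*, members with an ascarid hit lie near 0 on both sides of the step and members with other hits lie mostly above it at high numbers. In *T. colubriformis*, members follow the step of all unigenes (member medians -5.23 below it and 2.84 above it). Equal totals would raise points with many counts by 0.38 in *A. galli* and 1.99 in *T. colubriformis*, and points with few counts by less.

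In *A. galli* the members split by the organism of their hit. Of the 151, 77 had their best hit in an ascarid, the order *A. galli* itself belongs to (46 in *Ascaris suum*, 30 in *Toxocara canis* and 1 in *Toxocara cati*), and 74 in another nematode, led by the whipworm *Trichuris trichiura* with 42 and the hookworm *Necator americanus* with 10. Hits in ascarids covered a median of 87.5% of the matched protein at 66.8% identity, and other hits 25% at 56.1% identity. Of 75 ascarid-hit members above the count minimum, 0 were higher in condition B by the 4-fold rule and 0 were lower, where 2.95% and 7.7% of all ascarid-hit unigenes were. Of 57 other-hit members above the minimum (17 were under it), 36 (63.2%) were higher and 0 lower, where 35.2% and 5.17% of all other-hit unigenes were. The plot of *A. galli* ratios by family shows both classes.

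**Figure D2:**
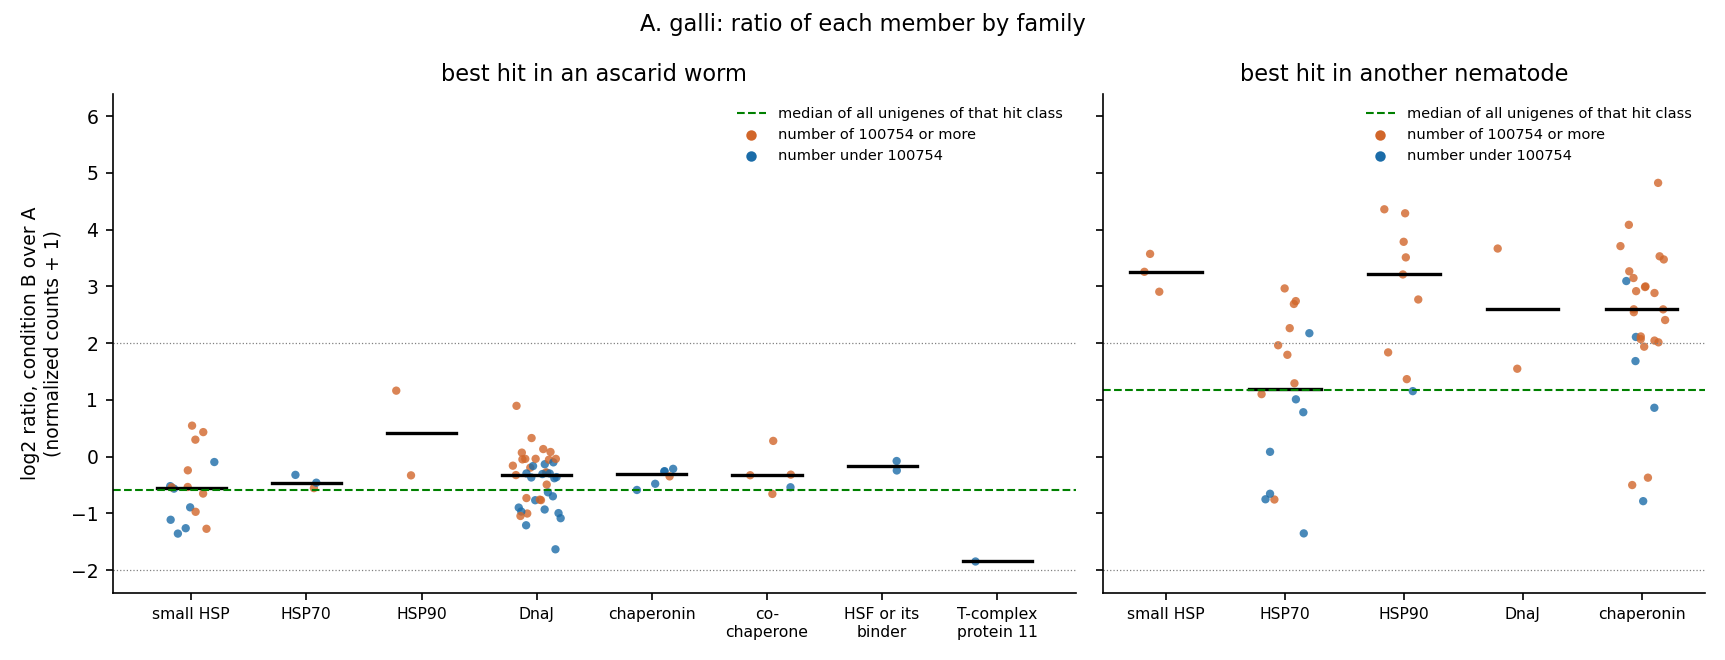
Ratio of each *A. galli* member by family, with ascarid hits on the left and hits in other nematodes on the right. The vertical axis is the log2 ratio of condition B over condition A, points are unigenes above the count minimum coloured by unigene number, and the green dashed line is the median of all unigenes of that hit class (-0.59 for ascarid and 1.17 for other hits). Black bars are family medians and dotted lines mark a 4-fold difference. The ascarid-hit members stay between -1.84 and 1.16, and their DnaJ, chaperonin, co-chaperone and HSF1 medians turn positive when totals are set equal. Among other hits, the small, 90, DnaJ and chaperonin families lie mostly above their class median.

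The ascarid-hit chaperones of *A. galli* all stayed within 4-fold between the conditions where they passed the minimum (2 of the 77 did not pass it). Their median ratio was -0.35 (middle 50% from -0.74 to -0.15), which is 0.25 above the -0.59 of all ascarid-hit unigenes, and it became 0.03 with equal totals and -0.21 with trimmed-mean scaling. Ratios ran from -1.84 to 1.16. At a 2-fold size 1 was higher in condition B and 10 were lower, where 7.48% and 30.1% of the class were. Of the 75, 51 (68%) lay above the median of their class. On the deposited scale the counting interval lay below 0 for 50 members, above 0 for 2 and held 0 for 23. The same counts over all ascarid-hit unigenes are not given here. Their median of -0.59 also lies below 0, so these interval counts are no result about the members. Summed over all 77 there were 407403 normalized counts in condition B and 526411 in condition A.

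Small heat shock proteins, which share the alpha-crystallin domain, had the largest sum of the ascarid-hit families, with 214432 normalized counts in condition B and 272411 in condition A over 16 unigenes. Their median ratio was -0.55, only 0.04 above the class median, and -0.17 with equal totals. The unigene with the most counts was ov25-1 (unigene 98120), a relative of the OV25 antigens first described in *Onchocerca*. It had 108121 in condition B and 115536 in condition A, a ratio of -0.10 (interval -0.11 to -0.08), and its sign turned with equal totals (0.29). The conditions differed by little for this transcript, and it lay above the class median.

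A second OV25-1 protein of *A. suum* was the hit of 2 abundant unigenes. Unigene 33156 had 43613 normalized counts in condition B and 64500 in condition A, a ratio of -0.56 (interval -0.59 to -0.54). Unigene 196856 had 43255 in condition B and 62914 in condition A, a ratio of -0.54 (interval -0.57 to -0.52). Both aligned over the same 131 of 170 residues at 71% identity and gave nearly the same ratio, although their numbers lie on either side of the step. Heat shock protein 27 (unigene 3553), a further small chaperone, had 12676 in condition B and 18181 in condition A, a ratio of -0.52 (interval -0.57 to -0.47).

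Less abundant small heat shock proteins spread more widely. Hsp-12.2, a very short protein of this family known from *Caenorhabditis elegans*, gave the lowest ratio of the family in unigene 3669, with 121 normalized counts in condition B and 312 in condition A (-1.36, interval -1.82 to -0.93). Unigene 186605, matched to the same *T. canis* protein over its whole length at the same 80% identity, had 131 in condition B and 106.5 in condition A (0.30, interval -0.24 to 0.85). The remaining Hsp-12.2 unigene (163657), matched to another protein, had 120 in condition B and 292 in condition A (-1.27). On the deposited scale 2 of the 3 were thus more than 2-fold lower in condition B, and the interval of the other one held 0.

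OV25-2 gave the highest ratio of the small heat shock family. Unigene 102512 had 194 in condition B and 133 in condition A (0.55, interval 0.08 to 1.02), and unigene 176101, on the same residues of the same protein, had 271 in condition B and 201 in condition A (0.43, interval 0.05 to 0.82). These are the 2 ascarid-hit members whose interval lay above 0. Of the other unigenes on that protein, the high-number 118167 had 37.5 in condition B and 54.8 in condition A (-0.54), and the low-number 20699 had 43.4 in condition B and 105.5 in condition A (-1.26). High-number unigenes of this protein thus lay on both sides of 0, and whether the unigenes are alleles, gene copies or assembly fragments cannot be told from the table.

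For the Hsp70 machine, 3 unigenes had ascarid hits. Hsp70 C (unigene 175149), an ATP-driven chaperone and the one of these with the most counts, had 30990 normalized counts in condition B and 45548 in condition A, a ratio of -0.56 (interval -0.59 to -0.53). Hsp70 F (unigene 11900), the mitochondrial form, had 17602 in condition B and 24208 in condition A (-0.46, interval -0.50 to -0.42). Hsp70 A (unigene 43441) had 794 in condition B and 993 in condition A (-0.32, interval -0.52 to -0.13), with a sign that turned under equal totals (0.06). All 3 lay below 0 on the deposited scale and all 3 above the class median of -0.59.

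The Hsp70 unigenes of *A. galli* with the most counts had no ascarid hit. Unigene 15711 had 57580 in condition B and 96981 in condition A, a ratio of -0.75 (interval -0.77 to -0.73), and unigene 206827 had 56627 in condition B and 95649 in condition A, a ratio of -0.76 (interval -0.78 to -0.74). Both matched all 647 residues of an Hsp70 of the guinea worm *Dracunculus medinensis* at 84.1% identity. The ratios were nearly the same across the number step, 1.68-fold and 1.69-fold lower in condition B (both -0.37 with equal totals).

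The Hsp90 family was thin among ascarid hits. HSP75 (unigene 117179), the mitochondrial Hsp90 also called TRAP1, had 6079 in condition B and 7645 in condition A (-0.33, interval -0.40 to -0.26), and 0.05 with equal totals. The only unigene named heat shock protein 90 with an ascarid hit (203551) matched 116 of 723 residues and had 37.5 in condition B and 16.2 in condition A (1.16, interval -0.05 to 2.61). It was the highest ratio of the ascarid-hit members above the count minimum, on few counts. A full-length cytosolic Hsp90 with an ascarid hit was not among the members, so its level in this worm was not measured by these rows. The Hsp90 co-chaperone AHSA1-like (unigene 187887), which speeds the ATPase of Hsp90, had 6646 in condition B and 8345 in condition A (-0.33, 0.05 with equal totals).

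J-domain proteins, which deliver clients to Hsp70 and set off its ATP cycle, were the largest ascarid-hit family with 41 unigenes, of which 40 passed the minimum. Their median was -0.32, 0.28 above the class median, and 0.07 with equal totals, with 5 members above 0. DnaJ A1 (unigene 149649), a general cytosolic Hsp70 partner, had 11935 normalized counts in condition B and 13664 in condition A (-0.20, interval -0.25 to -0.14). Its relative DnaJ A2 (unigene 124132) had 8274 in condition B and 10370 in condition A (-0.33). The mitochondrial-type dnj-10 (unigene 10998) had 4257 in condition B and 5545 in condition A (-0.38). All 3 abundant members lay above the class median, and the DnaJ A1 and A2 signs turned under equal totals (0.19 and 0.06).

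Within the J-domain proteins the subfamilies differed in median. The 7 DnaJ B unigenes had a median of -0.76, the 19 tested DnaJ C unigenes -0.28 and the 3 DnaJ A unigenes -0.28. DnaJ B4 gave the lowest ratio of the family in unigene 96163, with 49.3 in condition B and 155 in condition A (-1.63, interval -2.37 to -0.99). Other unigenes on the same DnaJ B4 protein gave -1.21 (17211), -0.76 (202161) and -0.04 (182342). The 2 with low numbers were the lower ones.

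DnaJ C1, an endoplasmic reticulum J-domain protein in mammals, showed the same split. Unigene 1177, which covered nearly the whole protein, had 896 in condition B and 1789 in condition A (-0.996, interval -1.16 to -0.83). Unigene 136321 had 505 in condition B and 460 in condition A (0.13), and unigene 131589 had 641 in condition B and 610 in condition A (0.07). Over the 17 proteins hit by ascarid-hit members in both number ranges, the high-number unigenes had the higher ratio in 16, by a median of 0.58. Of the ascarid-hit members, 10 of 37 high-number ones and 0 of 38 low-number ones lay above 0. Among all unigenes with a protein hit, 15679 of 25686 high-number ones and 4567 of 22812 low-number ones did. These pool both hit classes, and the like counts for ascarid hits alone are not given here. All unigenes step in the same direction at this number, so the split by number is no result about the members.

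The ascarid-hit chaperonins lay close together, with 6 unigenes between -0.59 and -0.22 and sums of 79240 in condition B and 99576 in condition A. The median was -0.31 (0.08 with equal totals). Hsp-60 (unigene 22895), the mitochondrial chaperonin, had 33031 normalized counts in condition B and 39664 in condition A (-0.26, interval -0.29 to -0.23), and its sign turned under equal totals (0.12). T-complex protein 1 zeta (unigene 152169) had 15283 in condition B and 19461 in condition A (-0.35), alpha (72568) 12059 in condition B and 14403 in condition A (-0.26), and theta (13247) 7422 in condition B and 11158 in condition A (-0.59, interval -0.65 to -0.53).

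The T-complex ring is built of several different subunits, and the delta and gamma subunits of *A. galli* had their best hit in the pinworm *Enterobius vermicularis*, with 87.6% and 87.2% identity. Delta (unigene 124610) had 25496 in condition B and 36087 in condition A (-0.50). Gamma (unigene 154166) had 9770 in condition B and 12638 in condition A (-0.37). Both lay inside the range of the ascarid-hit subunits. Gamma turned to 0.01 under equal totals and theta and delta did not (-0.21 and -0.12). Of the ring's members named in the table, 6 were found (alpha, gamma, delta, zeta, eta and theta), all between -0.59 and -0.22.

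Regulators and helpers of the machine stayed within 4-fold too. HSF1, the transcription factor of the heat shock response, had 2 unigenes on 1 *T. canis* protein. Unigene 61254 had 1154 in condition B and 1218 in condition A (-0.08, interval -0.24 to 0.09), and unigene 72226 had 1005 in condition B and 1191 in condition A (-0.24, interval -0.42 to -0.07), with both above 0 under equal totals (0.30 and 0.14). Hsp70-binding protein 1, which in mammals releases nucleotide from Hsp70, had 747 in condition B and 1086 in condition A in unigene 73175 (-0.54), and 204 in condition B and 168 in condition A in unigene 105834 (0.28). A T-complex protein 11-like unigene (11909), which shares a name with the ring but is no subunit of it, had 16.8 in condition B and 62.9 in condition A (-1.84, interval -3.20 to -0.78).

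The plot of abundant *A. galli* members puts these side by side. Of all 151 members, 33 averaged 1000 normalized counts or more over the conditions, 29 of them with ascarid hits. All 33 were within 4-fold between the conditions, as were 91.9% of the 7142 unigenes with a protein hit at that level. The 33 ratios ran from -0.996 to -0.08 with a median of -0.46, where the median of the 7142 was -0.63. With equal totals the 33 ran from -0.61 to 0.30, with a median of -0.08 and 16 above 0. Among them the step by unigene number was small, with medians of -0.44 in 12 high-number and -0.46 in 21 low-number members.

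**Figure D3:**
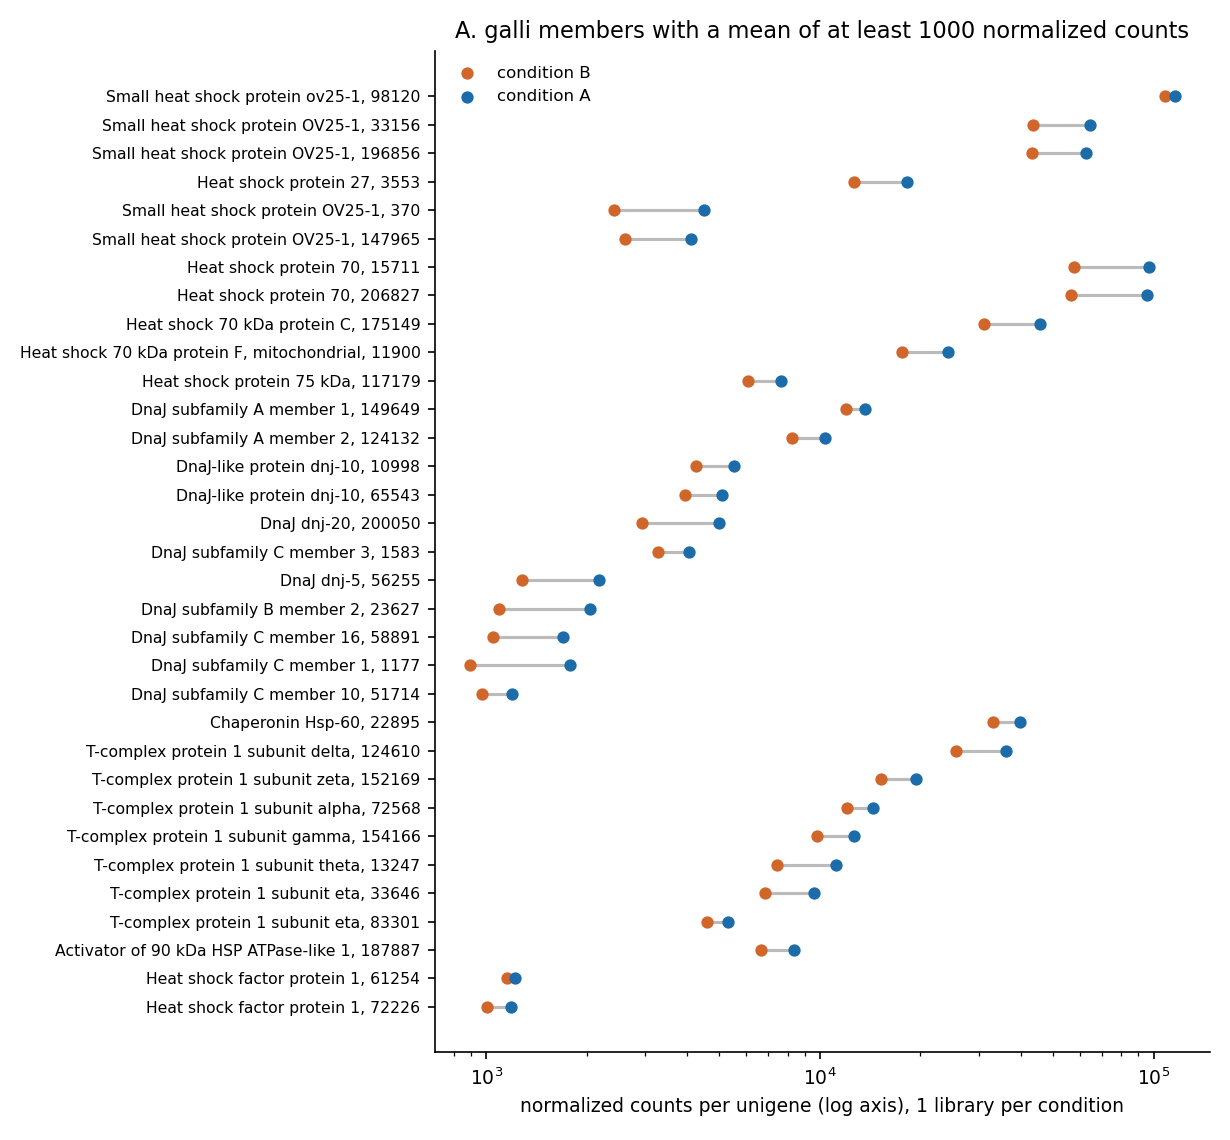
The 33 *A. galli* members that averaged 1000 normalized counts or more. The horizontal axis is normalized counts on a log axis, orange points are condition B and blue points condition A (1 library each), and each row is 1 unigene with its name and number. In every row the condition B point lies left of or on the condition A point, with ratios between -0.996 and -0.08. With equal totals 16 of the 33 would have the condition B point on the right.

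Other-hit members at lower levels lay mostly on the other side of 0 from the abundant ones. Leaving aside the 4 that averaged 1000 or more (both Hsp70 and both T-complex unigenes above, median -0.63), 36 of 53 members above the minimum (67.9%) were higher in condition B by the 4-fold rule, with a median of 2.60. The sums of these 70 unigenes were 5384 in condition B and 1301 in condition A, against 149472 in condition B and 241354 in condition A for the 4. All other-hit members together had a median of 2.41, which is 1.24 above that of their class. At a 2-fold size 47 of the 57 were higher and 1 lower, where 52.4% and 16.8% of the class were. In the authors' deposited table, 41 of the 151 *A. galli* members of both hit classes carried an up mark and 1 a down mark. The lowest p-value among these members was 0.0499 with an adjusted p-value of 1. Over all *A. galli* unigenes, 32874 of 150798 carried an up mark and 15187 a down mark.

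The largest set had its best hit in a whipworm protein named mitochondrial chaperonin hsp60, and the name is that of the hit. On this 1 protein of 548 residues lay 22 *A. galli* unigenes, which together covered 533 residues, with up to 11 unigenes at 1 residue and identities from 42.5% to 84.8%. Of the 22, 18 met the 4-fold rule with condition B higher, 21 were above 0, and the sums were 3317 in condition B and 593 in condition A. Overlapping pieces of different identity on 1 protein are not replicates of it. Whipworm hits of any name behaved likewise, since 62.2% of all 3017 tested whipworm-hit unigenes were higher in condition B and 0.563% lower (24 of 36 members, or 66.7%, were higher).

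The most abundant of these hsp60 pieces, unigene 101030, had 1231 in condition B and 203 in condition A, a ratio of 2.60 (interval 2.29 to 2.92). Unigene 17026, with a low number, had 233 in condition B and 26.4 in condition A (3.09, interval 2.31 to 4.09). Unigene 192356 matched 412 residues at the lowest identity, 42.5%, and had 84.8 in condition B and 2.03 in condition A (4.82, interval 2.83 to 10.72), with 2 reads behind the condition A value. The single piece below 0, unigene 445, had 17.8 in condition B and 31.4 in condition A (-0.79, interval -2.19 to 0.45). The ascarid-hit Hsp-60 above, at 33031 in condition B and 39664 in condition A, lay slightly below 0 on the deposited scale (0.12 with equal totals). The plot of hsp60 pieces shows where each one lies.

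**Figure D4:**
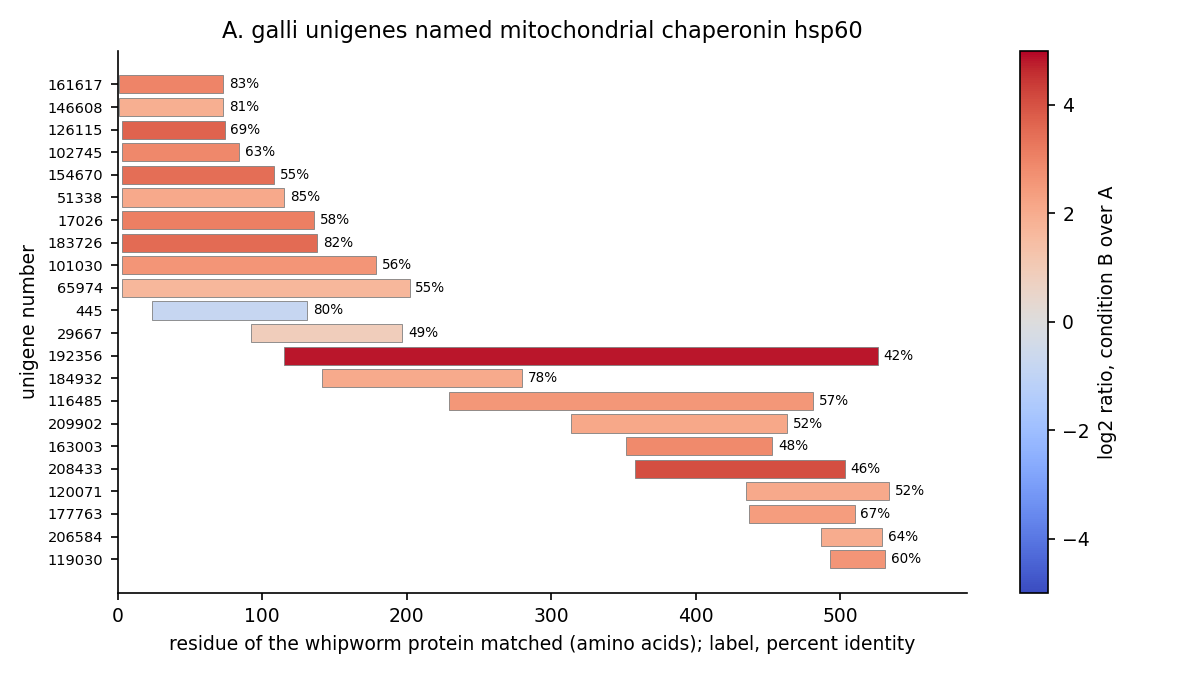
The 22 *A. galli* unigenes whose best hit was the mitochondrial chaperonin hsp60 of *T. trichiura*. The horizontal axis is the residue of the whipworm protein, each bar spans the residues 1 unigene matched, the label at its end is the percent identity, and the colour is the log2 ratio of condition B over condition A. Bars of unlike identity overlap along the protein, and 21 of the 22 have a ratio above 0, also with equal totals.

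Names typical of bacteria or plastids were common in this group. A putative GroL, the bacterial form of the chaperonin, was the name of 3 unigenes on 1 *Ancylostoma ceylanicum* fragment. All 3 were higher in condition B, where 35.2% of all other-hit unigenes were, and all 3 have high numbers. Unigene 112596 had 170 in condition B and 18.3 in condition A (3.15, interval 2.22 to 4.39), and unigene 168884 had 165 in condition B and 16.2 in condition A (3.27, interval 2.30 to 4.60). A stromal 70 kDa protein named as chloroplastic, again of the whipworm, was the hit of 13 unigenes, of which 4 of 11 tested (36.4%) were higher, with a median of 1.79. This is below the 62.2% and the median of 2.32 of all whipworm-hit unigenes. The most abundant of them, unigene 140722, had 101 in condition B and 14.2 in condition A (2.74, interval 1.68 to 4.21).

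Beside these stood a list of bacterial-type products chosen as markers of other sources (RNA polymerase subunits, 30S and 50S ribosomal proteins, elongation factors and ATP synthase subunits). Its names do not mark other sources alone, since its most abundant unigene was an ascarid-hit ATP synthase subunit beta (100225, ratio -0.20). Among other-hit unigenes the list was also mostly higher in condition B. Of 324 tested, 204 (63.0%) were higher by the 4-fold rule and 0 lower (median 2.42), where 35.2% and 5.17% of all other-hit unigenes were. Of 81 ascarid-hit unigenes of that list, 30 were higher and 2 lower (median 1.31), where 2.95% and 7.7% of all ascarid-hit unigenes were. Plant-type names moved less (3 higher and 1 lower of 34 tested, median 0.40). The part of these other sources in the chaperone ratios was not tested.

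In the other-hit Hsp90 family, 6 of 9 tested unigenes (66.7%) were higher in condition B, where 35.2% of all other-hit unigenes were (median 3.21). Most carried the joint name ATPase/histidine kinase/DNA gyrase B/HSP90 domain, which describes an ATP-binding fold shared by Hsp90 and DNA gyrase, so that they need not be Hsp90. Unigene 181374 of this name had 167 in condition B and 11.2 in condition A (3.79, interval 2.67 to 5.47). A unigene with an HSP90 domain name (144667) had 74.9 in condition B and 10.1 in condition A (2.77, interval 1.54 to 4.59). Both intervals lie above the class median of 1.17, but both unigenes have high numbers and were named as the most abundant of the family. Unigene 181374 is a *N. americanus* hit. Unigene 144667 is a whipworm hit, and its interval holds the median of 2.32 of all whipworm-hit unigenes.

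The other-hit Hsp70 family was mixed. Of 16 tested unigenes, 5 (31.3%) were higher in condition B, near the 35.2% of all other-hit unigenes, and the median of 1.20 was 0.03 from that of its class. The whipworm hit of heat shock protein 70 gave the lowest ratio in unigene 684, with 96.6 in condition B and 248 in condition A (-1.35, interval -1.87 to -0.87). A putative Hsp70 fragment matched to the filarial worm *Breinlia jittapalapongi* at 96.4% identity (unigene 217841) had 38.5 in condition B and 4.06 in condition A (2.96, interval 1.20 to 6.39). Thus unigenes of 1 family and 1 hit class lay on both sides of 0.

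Few small heat shock and DnaJ unigenes had other hits. Of 6 small ones 3 passed the minimum, and all 3 were higher in condition B (median 3.26), where 35.2% of all other-hit unigenes were. All 3 have high numbers and rest on 2 to 4 reads in condition A. Unigene 206094 had 59.2 in condition B and 4.06 in condition A (3.57, interval 1.89 to 6.98), and unigene 142218 had 47.3 in condition B and 4.06 in condition A (3.26, interval 1.53 to 6.67). These matched Hsp20 proteins of the nodular worm *Oesophagostomum dentatum* at 94.2% and 93.7% identity, above the 50% to 86.2% of the ascarid-hit small heat shock members. The same proteins were also hit by *T. colubriformis* members, at 95% and 94.3% identity. The source of these *A. galli* unigenes was not tested. Of 4 DnaJ unigenes 2 were tested, and DnaJ B1 (114752) had 37.5 in condition B and 2.03 in condition A (3.67, interval 1.55 to 9.58), on 2 reads in condition A.

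Both the hit class and the number range went with the ratio in *A. galli*. Among other-hit members, 33 of 44 high-number unigenes (75%) and 3 of 13 low-number ones were higher in condition B by the 4-fold rule, with medians of 2.76 and 0.86. For all unigenes with a protein hit, 30.1% were higher and 0.969% lower at high numbers, and 3.63% higher and 12.8% lower at low numbers. These shares pool ascarid hits, of which 2.95% were higher over both ranges, with other hits, of which 35.2% were. They are thus not a like background for the other-hit members, whose class share within each range is not given here. Ascarid-hit members differed less between the ranges (medians -0.28 and -0.50). Summing all unigenes per matched protein left 9 of 19 other-hit proteins higher in condition B.

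Chaperone partners under other names, on lists chosen with results of these data known, are given for ascarid hits beside the 2.95% higher and 7.7% lower of all ascarid-hit unigenes. Endoplasmic reticulum chaperones had 1 of 26 unigenes higher and 1 lower (median -0.41), peptidyl-prolyl isomerases, which turn proline bonds, 0 of 35 either way (-0.46), and prefoldin, which hands clients to the T-complex ring, 0 of 7 either way (-0.78). Protein disulfide-isomerase (unigene 80604), which joins cysteines in the endoplasmic reticulum, had 97225 in condition B and 105632 in condition A (-0.12, or 0.26 with equal totals). The leading peptidyl-prolyl isomerase (132454) had 48983 in condition B and 77347 in condition A (-0.66), and prefoldin subunit 4 had 3681 in condition B and 6468 in condition A (-0.81).

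Further partners gave 1 of 21 higher and 1 lower for co-chaperones (median -0.76), 2 of 13 higher and 0 lower for bacterial-type chaperones (-0.73), 0 of 14 either way for quality-control proteases (-0.63) and 0 of 64 higher with 3 lower for oxidative stress enzymes (-0.64). The ubiquitin ligase CHIP (unigene 30499), which tags clients of Hsp70 for breakdown, had 14608 in condition B and 21106 in condition A (-0.53). ClpB, a disaggregase, was the abundant exception with 5135 in condition B and 3411 in condition A (0.59). Most of these partner counts are near 0, as the shares of their class are. Among other hits, where 35.2% of all unigenes were higher, the same lists differed. Higher in condition B were 0 of 3 endoplasmic reticulum chaperones, 23 of 53 isomerases (1 lower), 0 of 2 prefoldins and 1 of 5 co-chaperones. So were 19 of 37 bacterial-type chaperones, 18 of 24 proteases and 52 of 84 oxidative stress enzymes (3 lower). For both hit classes together, 17.6% of all unigenes with a protein hit were higher and 6.55% lower. Major sperm protein, a marker of sperm, had 3 of 158 unigenes higher and 52 lower in condition B (median -1.78). Of the other markers of tissue, yolk protein had 2 of 3 higher and eggshell proteins 2 of 36 higher and 4 lower. Body muscle proteins had 1 of 18 higher and 0 lower. All tested yolk and eggshell unigenes and 16 of the 18 muscle ones were ascarid hits. Of all ascarid-hit unigenes 2.95% were higher and 7.7% lower. The part of these tissues in the member ratios was not tested.

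In *T. colubriformis* members were found far up and far down in nearly equal number. Of 74 above the minimum (7 were under it), 29 (39.2%) were higher in condition B by the 4-fold rule and 30 (40.5%) were lower, where 40.2% and 40.9% of all unigenes with a protein hit were. These shares are near the background, so they are no result about the members. With equal totals and the minimum applied to the rescaled counts, the split was 38 higher and 21 lower of 79, beside 53.2% and 27.5% of all unigenes with a hit. The member median was -0.19 on the deposited scale, 1.75 with equal totals and 0.80 with trimmed-mean scaling (all unigenes with a hit had 0.47 on the deposited scale). Ratios ran from -11.00 to 6.29, and the plot of *T. colubriformis* ratios by family shows the spread.

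**Figure D5:**
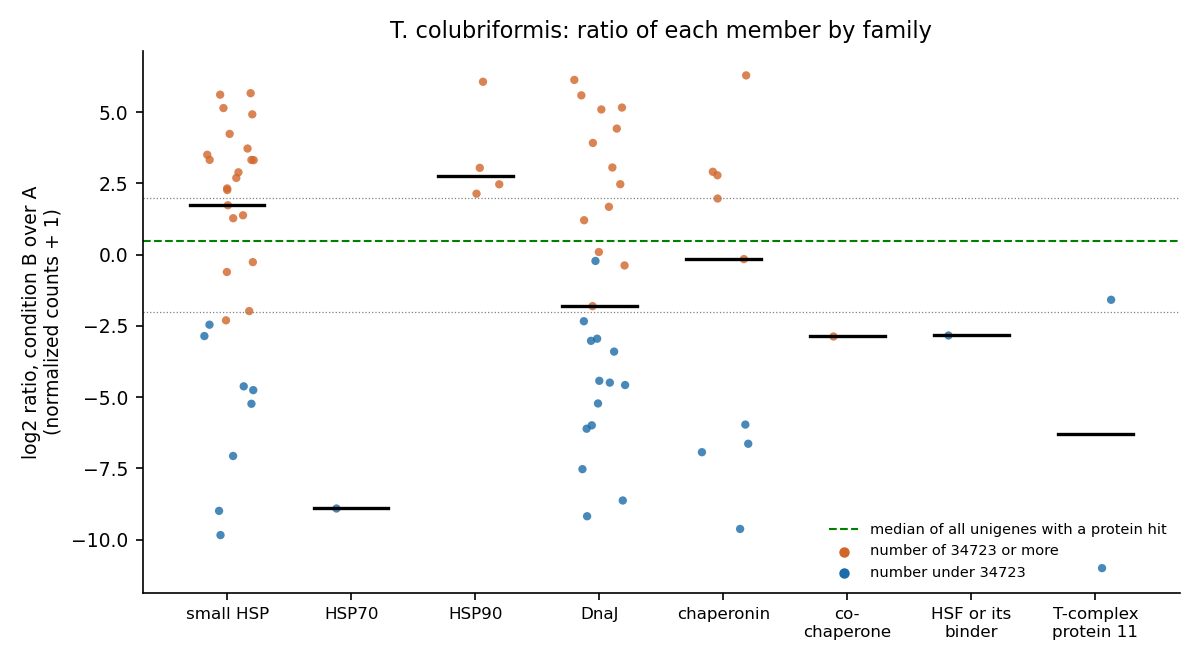
Ratio of each *T. colubriformis* member by family. The vertical axis is the log2 ratio of condition B over condition A, points are unigenes above the count minimum coloured by unigene number, and the green dashed line is the median of all unigenes with a protein hit (0.47). Black bars are family medians and dotted lines mark a 4-fold difference. Of the 44 high-number points 36 lie above 0, with the single co-chaperone point at -2.86 among the rest, and all 30 low-number points lie below 0. With equal totals the DnaJ median of -1.81 becomes -0.01 and the chaperonin median of -0.16 becomes 1.79.

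Unigene number went with the direction in nearly every *T. colubriformis* member. Of 44 high-number members, 29 were higher and 2 lower in condition B (median 2.84), beside 66.1% and 5.56% of all high-number unigenes with a hit. Of 30 low-number members, 0 were higher and 28 lower (median -5.23), beside 0.447% and 95.1%. For the 11 proteins hit by members in both ranges, the high-number unigenes had the higher ratio in 11, by a median of 7.37. In the authors' deposited table an up mark stood beside 31 of the 81 members and a down mark beside 31. Their lowest p-value was 0.5, with an adjusted p-value of 1. Over all *T. colubriformis* unigenes, 15301 of 43810 carried an up mark and 17132 a down mark. The members' shares are near these, so the marks are no result about the members.

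Small heat shock proteins were the largest of these families with 31 unigenes, 29 of them named Hsp20/alpha crystallin. Of 29 tested, 14 (48.3%) were higher and 9 (31.0%) lower in condition B, where 40.2% and 40.9% of all unigenes with a hit were. Of the 31, 22 had high numbers, the range in which 66.1% of unigenes with a hit were higher. The family median was 1.73, and 17 of the 29 (58.6%) lay above the median of all unigenes with a hit. Unigene 81754 had the most counts in condition B, with 10850 there and 956 in condition A (3.50, interval 3.32 to 3.70). Unigene 61413 had 7550 in condition B and 148 in condition A, a 50.7-fold higher value in condition B (5.66, interval 5.21 to 6.18). At the other end, unigene 22405 had 9 in condition B and 9168 in condition A (-9.84, interval -11.12 to -9.07).

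Unigenes on 1 small heat shock protein could point apart. The *O. dentatum* protein that unigene 22405 matched was also the hit of unigene 54960, with 439 in condition B and 8 in condition A (5.61, interval 3.92 to 8.83), and of unigene 36810, with 65 in condition B and 4 in condition A (3.72, interval 1.49 to 9.35, on 2 reads in condition A). Unigene 43842 had 2968 in condition B and 11722 in condition A, a ratio of -1.98 (interval -2.06 to -1.91). Its reads were 5936 in condition B and 5861 in condition A, so its ratio was 0.01 with equal totals. It was also the only one of 20 members averaging 1000 or more that lay within 4-fold (5%), where 6.80% of the 5764 unigenes with a hit at that level did.

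The single Hsp70 unigene (840) had 32.5 normalized counts in condition B and 16072 in condition A, which is 480-fold lower in condition B (-8.91, interval -9.50 to -8.45). It matched 119 of 1190 residues of a *Trichinella pseudospiralis* fragment, at 92.4% identity. The gap holds under equal totals (-6.95). All 4 Hsp90-family unigenes were higher in condition B by the 4-fold rule, and all 4 have high numbers, where 66.1% of unigenes with a hit were higher. Heat shock protein 90 (40030), matched at 100% identity over 109 residues to *Nippostrongylus brasiliensis*, had 1136.5 in condition B and 16 in condition A (6.06, interval 4.79 to 8.03).

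The next Hsp90 unigenes, with *Ancylostoma duodenale* hits, were unigene 79103, with 535 in condition B and 64 in condition A (3.04, interval 2.35 to 3.88), and unigene 37339, with 314 in condition B and 56 in condition A (2.47, interval 1.72 to 3.38). The fourth, a gyrase B/HSP90 domain name (57823), had 21 in condition B and 4 in condition A (2.14, interval -0.24 to 7.76), on 2 reads in condition A. The Hsp70 had a low number, so family and number range cannot be told apart here. The Hsp90 activator Activator of Hsp90 ATPase (68796) had 3 in condition B and 28 in condition A (-2.86).

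Of 27 tested DnaJ unigenes, 8 (29.6%) were higher and 13 (48.1%) lower in condition B, where 40.2% and 40.9% of all unigenes with a hit were. The median of -1.81 became -0.01 with equal totals and -0.91 with trimmed-mean scaling. With the minimum applied to the rescaled counts, which lets in all 31, these became 1.25 and -0.14. The member with the most counts, unigene 17516, had 2942 in condition B and 22750 in condition A (-2.95, interval -3.02 to -2.89), and with equal totals it lay within 4-fold (-0.96). Unigene 91192 matched the same stretch of the same *A. duodenale* protein and had 6364 in condition B and 296 in condition A (4.42, interval 4.10 to 4.78). The 2 unigenes thus pointed apart on 1 protein, with 73% and 75.9% identity.

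A further DnaJ pair on 1 *O. dentatum* protein did so too. Unigene 82054 had 5613 in condition B and 156 in condition A (5.16, interval 4.72 to 5.66), while unigene 8922 had 8 in condition B and 1660 in condition A (-7.53, interval -8.92 to -6.71). The highest DnaJ ratio was that of unigene 77990, with 3010 in condition B and 42 in condition A (6.13, interval 5.30 to 7.19). The lowest was that of unigene 31850, with 8 in condition B and 5220 in condition A (-9.18, interval -10.56 to -8.37).

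The 10 DnaJ unigenes that averaged 1000 or more lay on both sides of 0, with a median of 0.48 (2.47 with equal totals). On the higher side, unigene 37291 had 2355.5 in condition B and 48 in condition A (5.59), and unigene 72992 had 2250.5 in condition B and 148 in condition A (3.92). On the lower side, unigene 102, which covered all 340 residues of a *N. americanus* protein, had 446.5 in condition B and 16712 in condition A (-5.22, interval -5.37 to -5.08). Unigene 29587 had 161 in condition B and 10294 in condition A (-5.99, interval -6.24 to -5.77). A unigene with a DnaJ and Hsc20-type name (4714) matched to *Haemonchus contortus* had 210 whole reads in condition B and 1264 in condition A before scaling, and a ratio after it well below 0 (-4.58, interval -4.90 to -4.29). These 3 lower ones kept their direction under equal totals (-3.24, -4.01 and -2.60).

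Of 9 tested chaperonin unigenes 3 (33.3%) were higher and 4 (44.4%) lower in condition B, where 40.2% and 40.9% of all unigenes with a hit were. The median of -0.16 was 1.79 with equal totals and 0.84 with trimmed-mean scaling. T-complex beta (12153), matched over 529 residues, had 18 in condition B and 15012 in condition A (-9.63, interval -10.46 to -9.04). Theta (90818) had 1015 in condition B and 12 in condition A (6.29, interval 4.85 to 8.68). Alpha had 429.5 in condition B and 26870 in condition A in unigene 1619 (-5.96, at 41% identity), and 66.5 in condition B and 8 in condition A in unigene 86940 (2.91, at 95.3% identity). Subunits of 1 ring thus stood up to 15.9 apart on the log2 scale, where in *A. galli* all lay within 0.37 of one another. The 15.9 sets beta, with a low number, against theta, with a high one. In these ranges 95.1% of unigenes with a hit were lower and 66.1% higher, so subunit and number range cannot be told apart. Of all unigenes with a hit that averaged 1000 or more, 6.80% stayed within 4-fold here and 91.9% in *A. galli*.

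Eta gave 3 unigenes on 1 *O. dentatum* protein at 98.0% to 99.8% identity. Unigene 47849 had 61 in condition B and 8 in condition A (2.78, interval 1.02 to 6.01), unigene 53171 had 25 in condition B and 28 in condition A (-0.16, interval -1.41 to 1.29), and unigene 20828 had 4 in condition B and 610 in condition A (-6.93, interval -9.15 to -5.87). They lay higher, level and lower in condition B, in the order high, high and low number. A putative GroL (22063) had 1 in condition B and 198 in condition A (-6.64, interval -12.96 to -5.08), on 2 reads in condition B.

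The remaining names were few. Heat shock factor binding protein 1 (4778), a small inhibitor of HSF1 in mammals, had 2 in condition B and 20 in condition A (-2.81), and HSF1 itself was not among the members of this worm. T-complex protein 11 (34172), again no part of the ring, had 1 in condition B and 4096 in condition A (-11.00, interval -17.31 to -9.52), on 2 reads in condition B. Partners under other names were split as the members were, with 3 higher and 3 lower of 6 endoplasmic reticulum chaperones, 10 and 8 of 19 peptidyl-prolyl isomerases, 3 and 6 of 11 prefoldins, 2 and 0 of 4 co-chaperones, 7 and 6 of 19 bacterial-type chaperones, 6 and 6 of 12 proteases and 15 and 21 of 40 oxidative stress enzymes. Bacterial-type products, led by a mitochondrial elongation factor G, had 24 higher and 23 lower of 54 tested (median 0.34). Major sperm protein had 11 higher and 5 lower of 24 (median 1.73). Of all unigenes with a hit 40.2% were higher and 40.9% lower. The part of both marker lists in the member ratios was not tested.

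Set side by side, members that averaged 1000 normalized counts or more stayed within 4-fold in 33 of 33 cases in *A. galli*. In *T. colubriformis* 1 of 20 did, and in both worms their share can be read against all unigenes with a hit at that level (91.9% in *A. galli* and 6.80% in *T. colubriformis*). Each condition is 1 library, so the exposure and the library cannot be told apart.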

How the data were processed

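Poly(A) RNA of whole worms was measured in 4 libraries, 1 per condition and worm. The authors' deposited tables give, per the file headers, normalized counts per unigene in conditions A and B (a size-factor-scaled score), the fold change as a ratio and as log2, p-values raw and adjusted, and the protein hit, with percent identity and score. DESeq is named for the comparison, with no version, per the submitters' processing notes. The sources used here do not give the assembler, aligner or settings. The tables do not tie conditions A and B to extract and water, so the groups treated and control could not be assigned.

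Whole reads were recovered from the deposited normalized counts (within 0.1 read) and divided by 2 for exact (Clopper-Pearson) 95% intervals of the ratio without pseudocount, because read pairs seem to count as 2 (63.5% to 75.2% of the read counts were even). PCR copies are not independent molecules, so the intervals cover counting error only. A unigene is listed only with reads in A and in B. A pseudocount of 1, a floor of 20 normalized counts for the larger value and a 4-fold size rule were used, with no test. The values were computed with Python 3.11.15, numpy 2.4.6, scipy 1.17.1 and pandas 2.3.3 and plotted with matplotlib 3.10.9, and the steps were tested on simulated data. 1 stray line (a read aligner's program tag) was left out. Reads recovered over the listed unigenes ran from 69118994 to 91812201 per library, and the full sequencing depth is not given here.

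Members and lists were chosen with earlier results of these data known. Named per worm, family and hit class were the 3 members of highest mean, 1 per product name, and the member with the largest ratio in each direction among those whose larger value reached 100 normalized counts, ranked by the interval bound nearest 0, and for each partner list the most abundant unigene. Other unigenes named, such as those sharing a protein with one of these, were chosen after their values were seen. Alternatives were a pseudocount of 5, total and trimmed-mean scaling, minimums of 0 and 100, a 2-fold rule, the counting interval as the rule, 1 unigene per product name, an identity of at least 70%, and, added after seeing the data, sums per protein and each unigene-number range alone. No sequences were used.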

Additional observations from a re-analysis of the deposited data

How the results depend on the processing

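Each value below is set against 0 higher, 0 lower and a median of -0.35 for ascarid-hit members of *A. galli*, 36 higher, 0 lower and 2.41 for its other-hit members, and 29 higher, 30 lower and -0.19 for *T. colubriformis*. With the minimum applied to the rescaled counts, total scaling gave medians of 0.043 for ascarid hits and 1.79 for *T. colubriformis*, and trimmed-mean scaling -0.20 and 0.84. Without a minimum, 1 ascarid-hit member was lower, and a minimum of 100 left 10 other-hit members higher. The 2-fold rule gave 1 ascarid-hit member higher and 10 lower and 1 other-hit member lower. With the counting interval as the rule, 12 other-hit and 17 *T. colubriformis* members were higher. With 1 unigene per product name the ascarid-hit median was -0.42, 9 other-hit members were higher, and *T. colubriformis* had 5 higher, 16 lower and a median of -2.99. An identity of at least 70% left 10 other-hit members higher. Summed per protein, a choice made after seeing the data, 1 ascarid-hit protein was lower, 9 other-hit proteins were higher and 19 *T. colubriformis* proteins were higher. Low unigene numbers alone, also chosen after seeing the data, gave medians of -0.50 (ascarid hits), 0.86 (other hits, 3 higher) and -5.23 (*T. colubriformis*, 0 higher), and high numbers alone -0.28 (ascarid hits) and 2.84 (*T. colubriformis*, 2 lower). The cause of these moves was not tested, beyond the smaller sets that some settings leave. Total scaling, with the minimum applied after it, turned the sign of 4 of 13 *A. galli* families and 14 of 41 named members, and of 2 of 8 families and 1 of 19 named members in *T. colubriformis*. No paired analysis was possible because each condition is 1 library and the labels carry no replicate numbers, and for the same reason no count test was run on the recovered reads. Depth limits the values resting on 2 to 4 reads, whose intervals span several log2 units.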
